A study of Mus musculus with 4 samples.

Results

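The 10 genes described here belong to the programme by which osteoclasts, the bone-resorbing cells of the macrophage lineage, take on their function. Ctsk encodes cathepsin K, a collagen-degrading cysteine protease, Acp5 the tartrate-resistant acid phosphatase, Mmp9 a gelatinase, Atp6v0d2 a subunit of the proton pump and Slc9b2 a sodium/proton exchanger. Oscar and Tnfrsf11a encode the collagen receptor OSCAR and RANK, Dcstamp and Ocstamp a pair of membrane proteins needed for cell fusion, and Nfatc1 the transcription factor. They were 10 of the 32285 genes of the count matrix, and they were chosen because of their measured levels in the cell type that the authors named Ctsk_Macro and in the other macrophages of these same samples. Their levels by cell type are therefore a description, with no test.

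Osteoclasts are multinucleated and dissolve bone. They form from myeloid precursors when the ligand RANKL engages its receptor RANK in the presence of CSF1, a signal that switches on the transcription factor NFATc1, which in turn drives genes for cell fusion and for the acid and proteases that break down matrix. Several of these genes are also used outside bone by macrophages and dendritic cells.

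CD45+ immune cells were sorted and profiled by single-cell 3′ RNA sequencing. The melanomas grew from injected YUMM1.7OVA cells, a mouse melanoma line expressing ovalbumin. The hosts were Rag2-/- mice of 6 to 12 weeks, which have no T or B cells of their own, and all received OT-1 T cells, specific for ovalbumin, on day 7. Tumours were taken on day 10, 72 h later. NTT came from the clone Y1.7_NTT_3A6, which had not seen targeted therapy, and RTT from the clone Y1.7_RTT_2B12, which is resistant to it. RTT_ROSA26 came from a resistant line with a control guide against Rosa26. RTT_PTGS12KO came from a resistant line in which Ptgs1 and Ptgs2 were knocked out. By the study's methods, resistant cells and their engineered derivatives were all kept in dabrafenib in culture. By the labels the 4 samples came from 1 tumour per condition. Legends of the study speak of pooled tumours instead, and the point could not be settled here. The knockout was made in the injected melanoma cells and the sort took immune cells, so the counts cannot check it. With 1 sample per condition no difference has a replicate check, and genotype and tumour cannot be told apart.

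The 4 samples held 6836 to 10296 cells each, 33368 in all, with 69332486 to 146829369 UMIs per sample and a median of 7293 to 13280 UMIs per cell. The authors' annotation gave 17 cell types, of which 16 had at least 50 cells. The remaining type, Mast, had 43. The study multiplexed the 4 samples. Cell names carried 1 of 3 suffixes, read here as 3 loads of the pooled samples, which no label states. Free RNA in a load would then be shared between samples. No barcode of a load was in more than 1 sample, while 98 barcode sequences recurred between loads. Levels are given as CPM, the UMIs of a gene per 1000000 UMIs of the summed cells, and 95% intervals (exact Poisson for sums, exact Clopper-Pearson for shares) cover counting error only. The genes carry 3′ tags, so a level was compared between cell types and not between genes.

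The macrophages counted here were Ctsk_Macro, TAM_C1q, TAM_Spp1, TAM_cycling and TAM_H2Ab1, and the type named Macro (346 cells) was not counted among them. Ctsk_Macro comprised 923 cells, 329 in RTT, 401 in RTT_ROSA26, 188 in RTT_PTGS12KO and 5 in NTT. The NTT values below thus rest on 5 cells. The summed macrophage markers (Adgre1, C1qa, C1qb, C1qc, Apoe, Mrc1, Csf1r and Mertk) were at 12578 CPM in Ctsk_Macro and at 36111 CPM in TAM_C1q, the most abundant macrophage type. Markers of NK and T cells summed to 2.26 CPM in Ctsk_Macro, those of conventional dendritic cells to 4.52 CPM and those of melanocytes to 0.431 CPM. Macrophage markers were thus present, at a lower level than in TAM_C1q, and those of lymphocytes, dendritic cells and melanocytes were near 0. The macrophage sum was also below that of Neutro (13404 CPM), and Apoe alone made up 9401 CPM of it in Ctsk_Macro. Monocyte markers summed to 104 CPM in Ctsk_Macro and 191 CPM in TAM_C1q, and neutrophil markers to 234 and 154 CPM. The 10 genes helped to define the cluster and do not check its name. Cells of this type carried more RNA than most, with medians for RTT, RTT_ROSA26 and RTT_PTGS12KO of 16793, 19418 and 19402 UMIs, against 13183, 13586 and 14063 UMIs in TAM_C1q. In the resistant tumours the 10 genes took up between 3.08% (RTT_ROSA26) and 3.25% (RTT) of all Ctsk_Macro UMIs, and in the 5 cells of NTT 2.22%.

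With the samples pooled, all 10 genes had their highest CPM in Ctsk_Macro. Of the 7193 genes with a mean of at least 10 CPM over cell types, 9.76% did, a list that Oscar missed with a mean of 6.0 CPM. A gene was called limited to Ctsk_Macro where its CPM there was at least 4 times that of the next cell type with 50 cells or more, and graded otherwise. By this measure 8 of the 10 were limited and 2, Dcstamp and Tnfrsf11a, were graded. The background was 0.222% of genes, 16 of 7193. As the genes were chosen on these levels, nothing is read from either share. Nearest to the threshold lay Ocstamp on its inner side at 4.49 times the next type, and Tnfrsf11a on its outer side at 1.82 times. On the scale of UMIs per cell the same 8 genes were limited, but the ratio to the next type moved from 1.24 to 2.54 for Dcstamp, from 4.49 to 9.19 for Ocstamp, from 38.9 to 22.4 for Atp6v0d2 and from 33.0 to 54.2 for Mmp9.

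**Figure D1:**
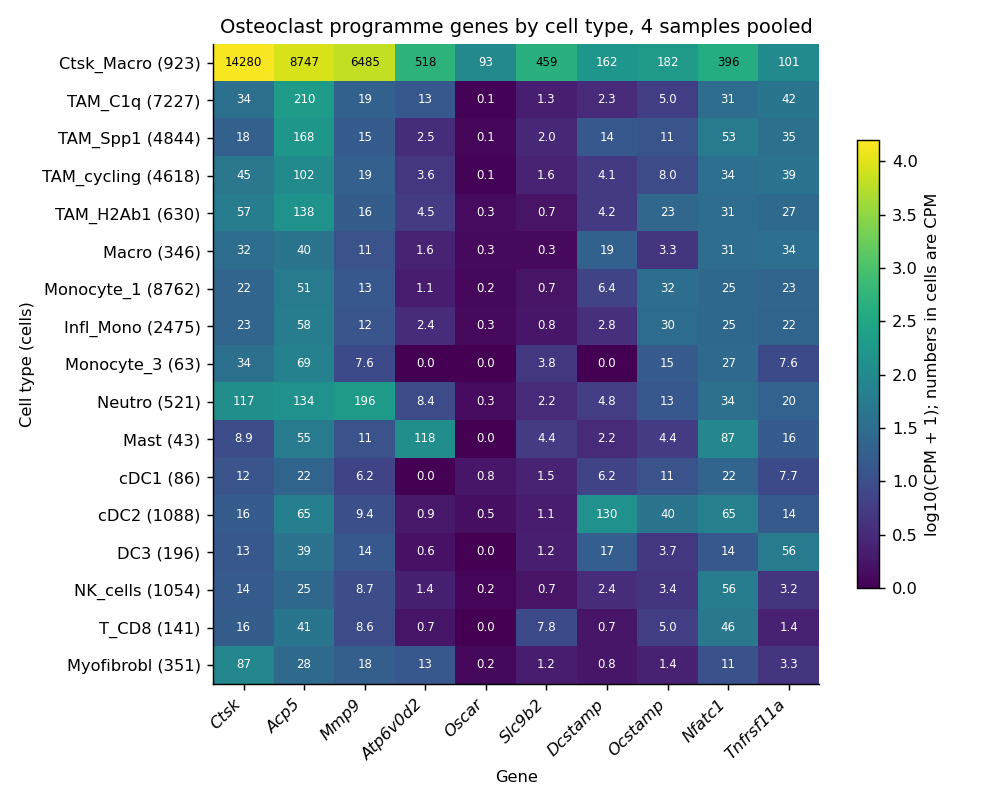
CPM of the 10 genes (columns) in each cell type (rows, with the number of cells), all 4 samples pooled, with the colour on a log scale. The Ctsk_Macro row was highest in each column, whereas Dcstamp in cDC2 (130 CPM) and Tnfrsf11a in DC3 (55.7 CPM) came within 1.24 and 1.82 times of it.

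Among the matrix-degrading and acid-producing genes, Ctsk (chr3:95499256-95509362, plus strand, GRCm38) reached 14280 CPM (14226 to 14335) in Ctsk_Macro. The next type was Neutro with 117 CPM, 122 times lower, and the highest other macrophage type was TAM_H2Ab1 with 57.3 CPM. Ctsk_Macro, 923 of 33368 cells, held 94.8% of all Ctsk UMIs. By tumour the level in Ctsk_Macro was 14593 CPM in RTT, 13932 in RTT_ROSA26, 14770 in RTT_PTGS12KO and 8167 in the 5 cells of NTT, so that the resistant tumours lay close together.

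Acp5 (chr9:22126727-22135711, minus strand) reached 8747 CPM in Ctsk_Macro and 210 CPM (207 to 213) in TAM_C1q, the next type, 41.6 times lower. Its level in Ctsk_Macro was 9596 CPM in RTT, 8700 in RTT_ROSA26, 7629 in RTT_PTGS12KO and 5897 in NTT. Of the 5 genes in this functional group, Acp5 had the smallest part of its UMIs in Ctsk_Macro, 76.1%. The rest lay mainly in the other macrophages, which are described below.

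Mmp9 (chr2:164940780-164955850, plus strand) was at 6485 CPM in Ctsk_Macro and at 196 CPM in Neutro, 33.0 times lower. Neutrophils store this protease in their granules. The highest other macrophage type was TAM_C1q with 19.5 CPM, 333 times lower. The tumours gave 6578 CPM in RTT, 6134 in RTT_ROSA26, 7127 in RTT_PTGS12KO and 6251 in NTT.

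Atp6v0d2 (chr4:19876841-19922605, minus strand) was at 518 CPM in Ctsk_Macro and 13.3 CPM in TAM_C1q, 38.9 times lower. Its levels in Ctsk_Macro were 518 CPM in RTT, 553 in RTT_ROSA26, 442 in RTT_PTGS12KO and 457 in NTT. The 43 Mast cells, below the minimum of 50 cells, held 53 UMIs, or 118 CPM. Slc9b2 (chr3:135307700-135345387, plus strand) was at 459 CPM in Ctsk_Macro and at 7.84 CPM in T_CD8, 58.5 times lower, with no other macrophage type above 2 CPM. It reached 459 CPM in RTT, 473 in RTT_ROSA26 and 437 in RTT_PTGS12KO, and 173 CPM in NTT.

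The receptors differed from each other in how far they were confined to this cell type. Oscar (chr7:3609813-3616157, minus strand) was at 92.6 CPM (88.3 to 97.1) in Ctsk_Macro, which held 96.1% of its UMIs. The next type, cDC1, had 1 UMI in 86 cells, so the ratio of 120 had a counting interval of 21.5 to 4733. Oscar was at 86.9 CPM in RTT, 79.3 in RTT_ROSA26, 129 in RTT_PTGS12KO and 166 in NTT. Tnfrsf11a (chr1:105780718-105847981, plus strand), the receptor for RANKL, was at 101 CPM (96.6 to 106) in Ctsk_Macro, 55.7 CPM (44.8 to 68.4) in DC3, the CCR7+ dendritic cells, and 41.9 CPM (40.6 to 43.1) in TAM_C1q. Only 12.3% of its UMIs were in Ctsk_Macro, and the ratio to the next type was 1.82 (1.47 to 2.27). It was at 100.2 CPM in RTT, 109 in RTT_ROSA26, 86.6 in RTT_PTGS12KO and 78.8 in NTT. The gene for its ligand, Tnfsf11, had no UMI in Ctsk_Macro, where a floor of 3 UMIs allows a level of up to 0.161 CPM.

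The fusion genes were shared with cDC2, conventional dendritic cells of the second type. Dcstamp (chr15:39745930-39760938, plus strand) was at 162 CPM (156 to 168) in Ctsk_Macro and 130 CPM in cDC2. In the single tumours cDC2 had 157 CPM in RTT, 190 in RTT_ROSA26 and 130 in RTT_PTGS12KO, whereas Ctsk_Macro had 122, 182 and 180 CPM. The order thus differed between tumours, with cDC2 above Ctsk_Macro in RTT and RTT_ROSA26 and below it in RTT_PTGS12KO. In cDC2 of NTT, with 282 cells, Dcstamp was at 35.8 CPM, lower than in RTT by a log2 ratio of -2.11 (-2.46 to -1.76). With the samples pooled, Dcstamp was at most 13.6 CPM in the other macrophages, in TAM_Spp1.

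Ocstamp (chr2:165393760-165400405, minus strand) was at 182 CPM in Ctsk_Macro, 40.4 in cDC2, 31.9 in Monocyte_1, 29.6 in Infl_Mono and 23.0 in TAM_H2Ab1. Ctsk_Macro held 36.4% of its UMIs and Monocyte_1 27.6%. In Ctsk_Macro it was at 131 CPM in RTT, 201 in RTT_ROSA26, 217 in RTT_PTGS12KO and 213 in NTT. In RTT the next type was Monocyte_1 with 79.3 CPM, so the ratio there was 1.65 and Ocstamp was graded in that tumour, against 5.57 in RTT_ROSA26 and 5.70 in RTT_PTGS12KO.

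Nfatc1 was at 396 CPM (387 to 405) in Ctsk_Macro and 65.2 CPM in cDC2, 6.07 times lower. Only 33.6% of its UMIs were in Ctsk_Macro. The tumours gave 348 CPM in RTT, 438 in RTT_ROSA26, 374 in RTT_PTGS12KO and 560 in NTT. It was above 30 CPM in each of the other macrophage types, where TAM_Spp1 had 53.3 CPM, and it was at 56.0 CPM in NK cells, lymphocytes that use NFAT factors too. Of the 3 tumours with at least 50 Ctsk_Macro cells, 7 genes were limited in RTT and 8 each in RTT_ROSA26 and RTT_PTGS12KO. The share of all genes limited within a single tumour was not counted, so nothing is read from these counts.

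**Figure D2:**
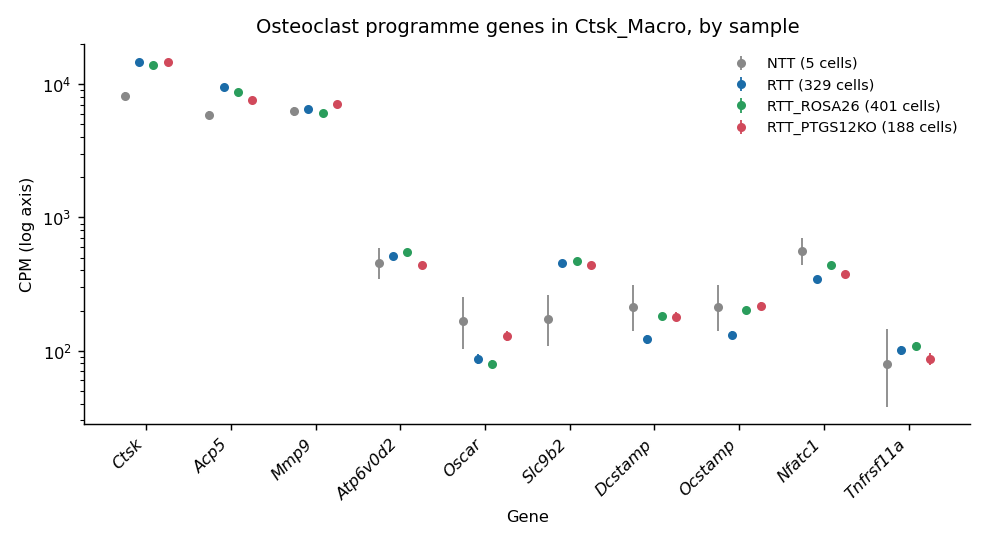
CPM (log axis) of each gene in Ctsk_Macro, 1 point per sample with its 95% counting interval. The 3 resistant tumours lay within 2-fold of each other for each gene, with the widest gap for Ocstamp (131 to 217 CPM), and the NTT points come from 5 cells.

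The levels outside Ctsk_Macro were read against NK cells, which should lack most of these genes, so that their UMIs there were read as background. Nfatc1 is the exception, since lymphocytes use it. Of the 1054 NK cells, 709 came from NTT and 306 from RTT_PTGS12KO, with 13 from RTT and 26 from RTT_ROSA26. TAM_C1q, by contrast, had 3412 cells in RTT and 2247 in RTT_ROSA26. Whether the background differed between tumours was not tested. Every cell with at least 5000 UMIs was thinned to 5000 UMIs, since the median depth was 13476 in TAM_C1q and 9424 in NK cells. Left out as too shallow were 1675 NTT cells, 384 RTT cells, 514 RTT_ROSA26 cells and 674 RTT_PTGS12KO cells. The UMIs of each gene were also counted per 100 Ctsk UMIs, as free RNA of 1 source should keep its genes in 1 ratio in every cell type.

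By the share of cells, Ctsk in the TAM_C1q and TAM_Spp1 macrophages was near that background. At equal depth it was detected in 94.6% of Ctsk_Macro cells, 8.18% of TAM_C1q, 8.27% of TAM_Spp1, 8.55% of Monocyte_1 and 7.69% of NK cells. Before thinning these shares were 20.3% in TAM_C1q and 16.2% in NK cells. Mmp9 was detected in 92.2% of Ctsk_Macro, 4.97% of TAM_C1q (4.48% to 5.51%) and 3.97% of NK cells (2.75% to 5.53%), but in 6.51% of TAM_Spp1 (5.80% to 7.28%), an interval that does not overlap that of NK cells. The ratio of Mmp9 to Ctsk was 45.4 per 100 in Ctsk_Macro, 60.6 in NK cells, 57.9 in Monocyte_1, 56.4 in TAM_C1q, 41.1 in TAM_cycling, 84.9 in TAM_Spp1, 28.7 in TAM_H2Ab1 and 168 in Neutro.

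Few cells held much of the Ctsk of the other macrophages. The 1% of TAM_C1q cells with the most Ctsk UMIs, 73 of 7227 cells, held 55.2% of the Ctsk UMIs of the type, and in TAM_cycling the share was 67.7%. Without them Ctsk was at 15.6 CPM in TAM_C1q, 14.5 in TAM_Spp1, 14.9 in TAM_cycling and 18.0 in TAM_H2Ab1, beside 12.8 CPM in NK cells treated in the same way (14.3 CPM over all of them). Of 934 cells with at least 20 Ctsk UMIs, 844 (90.4%) were named Ctsk_Macro, 80 other macrophages and 10 another type, of which 1 was Macro. Of the 80, 37 were TAM_C1q and 35 TAM_cycling. In Neutro the 6 cells with the most Ctsk UMIs held 84.2% of them, and without them Neutro was at 18.8 CPM and the next type was Myofibrobl with 52.3 CPM. Why these cells carry so much Ctsk was not tested.

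**Figure D3:**
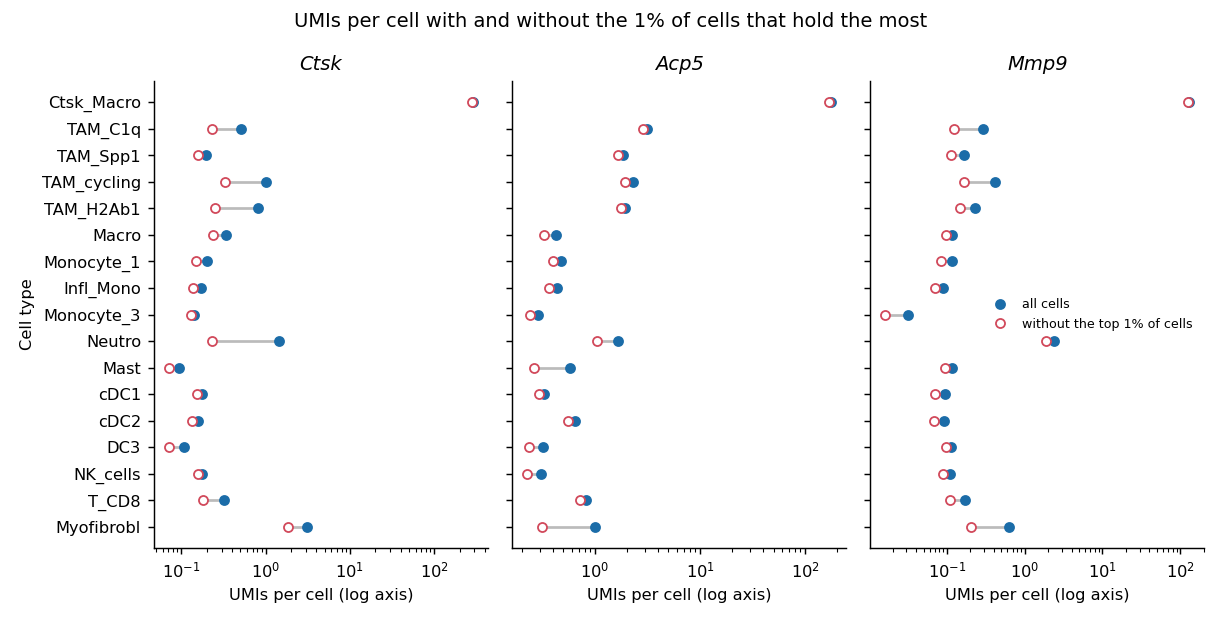
UMIs per cell (log axis) of Ctsk, Mmp9 and Acp5 in each cell type, over all cells and without the 1% of cells of that type that hold the most UMIs of the gene. For Ctsk, TAM_C1q moved from 0.515 to 0.233 UMIs per cell and NK cells from 0.178 to 0.158, while Acp5 in TAM_C1q moved only from 3.14 to 2.88.

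Acp5, by contrast, was present in the other macrophages well above NK cells. At equal depth it was detected in 48.3% of TAM_C1q cells (47.1% to 49.5%), 41.5% of TAM_Spp1, 39.7% of TAM_H2Ab1 and 27.7% of TAM_cycling, against 9.38% of NK cells (7.48% to 11.6%) and 97.0% of Ctsk_Macro. Before thinning it was detected in 69.6% of TAM_C1q and 18.4% of NK cells. It reached 609 UMIs per 100 Ctsk UMIs in TAM_C1q and 923 in TAM_Spp1, against 171 in NK cells and 61.3 in Ctsk_Macro. The 1% of TAM_C1q cells with the most Acp5 held only 9.27% of it. Acp5 thus met the 4-fold measure for Ctsk_Macro by its sheer level there, while it was also spread over the other macrophages.

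Tnfrsf11a was likewise spread over many cells. It was detected at equal depth in 38.2% of Ctsk_Macro, 28.0% of DC3, 17.9% of TAM_C1q and 17.7% of TAM_cycling, against 1.92% of NK cells. Per 100 Ctsk UMIs it had 121 UMIs in TAM_C1q and 429 in DC3, against 0.708 in Ctsk_Macro and 22.3 in NK cells. Nfatc1 was detected in 70.7% of Ctsk_Macro, 20.0% of TAM_Spp1, 13.3% of TAM_C1q and 23.9% of NK cells. As NK cells use this gene, they give no background for it. Of other types, it was detected in 5.73% of DC3, 10.8% of Monocyte_1 and 23.0% of cDC2. Dcstamp was detected in 40.6% of Ctsk_Macro and 33.6% of cDC2, with 3.81% in TAM_Spp1 and 0.962% in NK cells, and Ocstamp in 42.9% of Ctsk_Macro, 19.2% of cDC2, 11.98% of Monocyte_1 and 1.44% of NK cells. Atp6v0d2 was detected in 79.3% of Ctsk_Macro, 5.004% of TAM_C1q (4.50% to 5.54%) and 0.601% of NK cells (0.195% to 1.40%). Oscar and Slc9b2 were detected in under 1% of cells of TAM_C1q and TAM_Spp1 and in 27.1% and 69.7% of Ctsk_Macro.

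The genes were found together in single cells of Ctsk_Macro. This is a description, since they helped to define the cluster and were chosen on their levels in it. Ctsk, Acp5, Mmp9 and Atp6v0d2 were each detected in at least 79.3% of its thinned cells. A high share of cells with several genes thus follows largely from the single rates. At 5000 UMIs per cell, 826 of 902 Ctsk_Macro cells (91.6%; 89.6% to 93.3%) had at least 4 of the 10 genes, with a median of 7. In the other 4 macrophage types 132 of 16605 cells (0.795%) did, with a median of 1, and in NK cells 0 of 832, where a floor of 3 cells allows a share of up to 0.361%. The share in Ctsk_Macro was 93.2% in RTT, 88.7% in RTT_ROSA26 and 95.1% in RTT_PTGS12KO, and 4 of 5 cells in NTT. The share in the other macrophages was 1.00% in RTT, 0.993% in RTT_ROSA26, 0.306% in RTT_PTGS12KO and 1.07% in NTT. It ranged from 0.67% in TAM_H2Ab1 to 0.93% in TAM_C1q. All 10 genes were found in 34 Ctsk_Macro cells, whereas no cell of the other macrophages had more than 6. In cDC2, which share the fusion genes, 2.51% had at least 4. Without thinning the shares were 97.6% in Ctsk_Macro and 11% in the other macrophages.

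**Figure D4:**
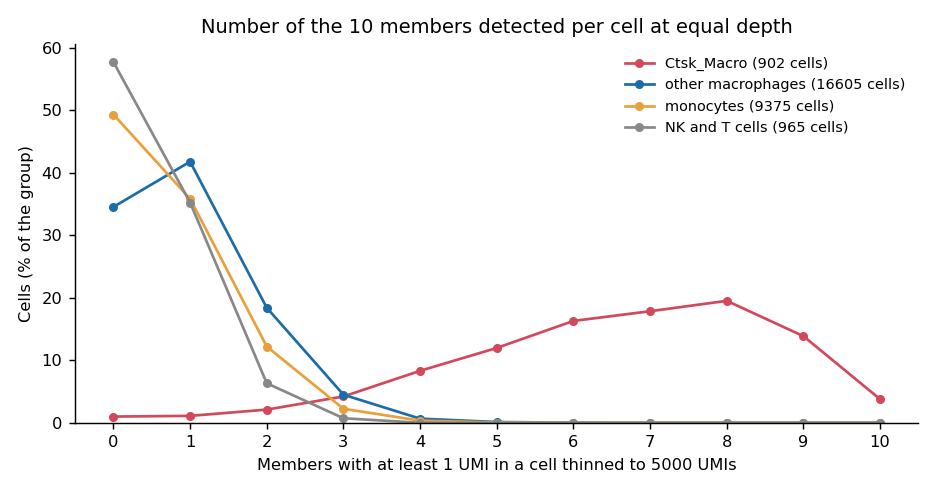
Percent of cells (y axis) by the number of the 10 genes with at least 1 UMI after thinning each cell to 5000 UMIs (x axis), for Ctsk_Macro, the other macrophages, monocytes, and NK and T cells. Ctsk_Macro had a median of 7 genes per cell and the other macrophages a median of 1.

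Within Ctsk_Macro the cells were uneven. Ctsk had a median of 250 UMIs per cell and ranged from 0 to 1139, with 32 of 923 cells at 0, and Acp5 had a median of 125 and a highest value of 1072. Oscar was at 0 in 56.0% of the cells, Dcstamp in 39.9% and Ocstamp in 35.8%. Over the cells of 1 tumour, where genes share the library and the depth of each cell, the largest Pearson correlations of log2 levels per cell, scaled to its total UMIs, joined the proteases and Acp5. Ctsk with Mmp9 gave r = 0.74 over 329 cells of RTT, 0.81 over 401 cells of RTT_ROSA26 and 0.87 over 188 cells of RTT_PTGS12KO, and Ctsk with Acp5 gave 0.76, 0.82 and 0.77. Dcstamp with Ocstamp gave 0.59, 0.59 and 0.49. Tnfrsf11a followed Ctsk least, with 0.15, 0.10 and 0.10, and it had at most 14 UMIs in a cell.

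Over 42 groups of a cell type in a sample with at least 50 cells, which share libraries and free RNA, log2(CPM + 1) of Oscar had the largest correlation with the mean of the other 9 genes (r = 0.93), then Acp5 (0.92), Slc9b2 (0.90) and Ctsk (0.90). Ocstamp (0.60), Dcstamp (0.54) and Tnfrsf11a (0.48) had the lowest. The 42 include the Ctsk_Macro groups of the resistant tumours, on whose levels the genes were chosen. With the samples pooled, Oscar was at most 0.773 CPM in any other cell type, so its r rests largely on those groups. The order of the genes by r is thus a description only. Among 2414 other genes of at least 50 CPM in Ctsk_Macro, Cyp2s1, a cytochrome P450, was nearest to the mean of all 10 (r = 0.94), at 52.7 CPM in Ctsk_Macro and 2.32 CPM in cDC1, the next type. Coq8a (0.91), Atp6v0e (0.88), Xpr1 (0.87) and Atp6v1d (0.87) followed. Atp6v0e and Atp6v1d encode further subunits of the proton pump, and Xpr1 a phosphate exporter. Spry1 and 1110008P14Rik (0.86), Letm1 (0.85), Nudt22 and Dglucy (0.84) completed the nearest 10. These candidates were filtered on their level in Ctsk_Macro, the type where all 10 genes were highest. Their r is thus set in part by that filter and is a description only.

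Other genes of the pathway were compared between Ctsk_Macro and TAM_C1q, as a description, since the same cells had been clustered on their expression. A gene counted as higher or lower where it was at least 2-fold so in each of the 3 resistant tumours, which 5.72% of 7022 genes were upwards and 7.08% downwards, with a median log2 ratio of 0.00 over all. Of 31 genes for osteoclast signalling and resorption, 29 passed the 10 CPM filter, 9 were higher and 0 lower, with a median of 0.82. The 2 that did not pass were Calcr and Siglec15. The 9 were Car2, Itgb3, Ppargc1b, Src, Jdp2, Snx10, Prdm1, Clcn7 and Itgav. Car2, the carbonic anhydrase that supplies protons, had the largest median log2 ratio over the tumours, 5.02. It was at 40.01 CPM in RTT, 32.8 in RTT_ROSA26 and 52.2 in RTT_PTGS12KO against 0.26, 0.67 and 0.38 CPM in TAM_C1q. Sirpa, a receptor for CD47, had the lowest median log2 ratio of the list, -0.55. Beyond those extremes, Itgb3, the integrin chain of the osteoclast's attachment ring, was singled out after its values were seen. It had 86.2, 72.8 and 37.2 CPM in Ctsk_Macro of the same tumours and a median log2 ratio of 4.65. Its ratio was above that of Car2 in RTT (5.21 against 5.02) and RTT_ROSA26 (4.65 against 4.34).

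Of 7 brakes of osteoclast formation 5 passed the filter, none was higher and 2, Irf8 and Id2, were lower, with log2 ratios of -1.73 and -1.38. Among those with at least 20 CPM in Ctsk_Macro, Rbpj was highest at -0.66. Irf8 was at 45.8 CPM in RTT, 28.4 in RTT_ROSA26 and 97.4 in RTT_PTGS12KO. Of 22 proton pump subunits beside Atp6v0d2 17 passed, 8 were higher and 1, Atp6v0a1, was lower, with a median of 1.12. Atp6v1b2, of the part that splits ATP, reached a median of 2.38, and Atp6v0d1, the ubiquitous form of the d subunit, had -0.41. Of the other cathepsins 10 of 13 passed, 0 were higher and 4 (Ctsb, Ctsc, Ctsh and Ctss) were lower, with a median of -0.82. Among those with at least 20 CPM in Ctsk_Macro, Ctsc was lowest at -2.57 and Ctsa highest at 0.35. Below that level Ctsf, named after its values were seen, had a median of 1.16 and was 2-fold higher in RTT and RTT_PTGS12KO but not in RTT_ROSA26 (0.97). Among metalloproteinases and their inhibitors 6 of 10 passed, 0 were higher and 1, Mmp13, was lower, with a median of -0.26. Mmp14, a membrane-bound collagenase, was highest at 0.82 and Mmp19 lowest at 0.16 of those with at least 20 CPM. Mmp12 and Timp1, named after their values were seen, had -2.13 and -0.69. Of 8 macrophage markers 6 were lower, and of 5 proliferation markers 3 were higher, which summed to 314 CPM in Ctsk_Macro and 109 CPM in TAM_C1q. The part of this in the lists above was not tested.

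Promoter sequence was read for the genes listed in a RefSeq table of GRCm38.p6, in windows of 250 bases before and 50 bases after a transcription start. It held 5 of the 10 genes, with 7 windows. Mmp9, Atp6v0d2, Dcstamp, Ocstamp and Nfatc1 were not among them. The motifs searched on both strands were GGAAA for NFAT, TGANTCA for AP-1, CACGTG and CATGTG for the E-box of MITF and TFE factors, and GAGGAA for PU.1, of which GGAAA and GAGGAA can overlap. The 250 upstream bases are shown for genes limited to Ctsk_Macro (Ctsk, Acp5 and Oscar) and for the graded receptor (Tnfrsf11a), 5′ to 3′ on the strand of the gene, with motif matches in capitals. They are chr3:95498960-95499209 (plus strand), chr9:22130599-22130848 (minus), chr7:3616158-3616407 (minus) and chr1:105780473-105780722 (plus). For Acp5, which has 3 windows, the one with the most matches is shown, chosen after they were counted.
Ctsk: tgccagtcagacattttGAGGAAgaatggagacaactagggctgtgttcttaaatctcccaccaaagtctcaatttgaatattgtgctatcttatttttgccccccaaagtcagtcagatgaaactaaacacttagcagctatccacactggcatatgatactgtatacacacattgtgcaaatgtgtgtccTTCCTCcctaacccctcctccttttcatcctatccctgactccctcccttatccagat
Acp5: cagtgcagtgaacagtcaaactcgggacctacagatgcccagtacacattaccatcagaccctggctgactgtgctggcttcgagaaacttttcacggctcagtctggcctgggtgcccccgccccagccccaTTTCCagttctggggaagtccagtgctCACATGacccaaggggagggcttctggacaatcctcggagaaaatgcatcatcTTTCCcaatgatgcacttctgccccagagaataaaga
Oscar: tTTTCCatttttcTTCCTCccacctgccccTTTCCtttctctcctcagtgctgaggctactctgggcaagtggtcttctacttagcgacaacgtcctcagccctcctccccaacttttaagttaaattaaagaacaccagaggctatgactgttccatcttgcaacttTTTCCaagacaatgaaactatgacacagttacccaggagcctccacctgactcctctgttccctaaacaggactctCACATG
Tnfrsf11a: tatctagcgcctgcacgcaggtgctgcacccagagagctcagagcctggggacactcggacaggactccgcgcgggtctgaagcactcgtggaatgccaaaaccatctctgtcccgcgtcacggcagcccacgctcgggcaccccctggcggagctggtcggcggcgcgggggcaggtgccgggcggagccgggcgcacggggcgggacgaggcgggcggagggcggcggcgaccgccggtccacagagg
In these 250 bases Ctsk had 2 matches of PU.1 (GAGGAA and its complement TTCCTC). Acp5 had 2 of NFAT, as TTTCC, and 1 E-box as CACATG. Oscar had 3 of NFAT, 1 E-box and 1 of PU.1, and Tnfrsf11a had none. Tnfrsf11a lies in a GC-rich start region, with 76.7% G and C over the 300 bases against 43.7% for Ctsk, 54.7% for Acp5 and 47.3% for Oscar, while the window of Slc9b2, not printed, had 63.3% and the other windows of Acp5 48.7% and 64%. Over the 300-base windows, 6 of 7 held the NFAT letters against 61.3% of all 32851 windows. PU.1 was in 2 of 7 against 28.3%, the E-box in 2 of 7 against 20.4% and AP-1 in 0 of 7 against 7.81%. A match of letters is a description, not a binding site.

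The size of Ctsk_Macro differed between tumours. It made up 4.89% of macrophages in RTT (329 of 6734; 4.38% to 5.43%), 6.69% in RTT_ROSA26 (401 of 5993; 6.07% to 7.35%), 3.61% in RTT_PTGS12KO (188 of 5207; 3.12% to 4.15%) and 1.62% in NTT (5 of 308; 0.529% to 3.75%). These shares depend on the sort and on a cluster that the genes themselves define. In load 1 the order of NTT (3.45%, 4 of 116 cells) and RTT_PTGS12KO (2.66%) was turned. The intervals of RTT and RTT_ROSA26, which both keep the targeted genes, did not overlap either.

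Within Ctsk_Macro the genes differed little between RTT_PTGS12KO and RTT_ROSA26. None of the 10 differed by 2-fold, where 5.08% of 6915 genes did, and their median log2 ratio of CPM + 1 was -0.06 against -0.07 over all genes. Oscar had the largest ratio at 0.69 (0.52 to 0.86), with 129 CPM in RTT_PTGS12KO and 79.3 in RTT_ROSA26. Mmp9 was at 0.22 and Ctsk at 0.08, while Acp5 (-0.19), Atp6v0d2 (-0.32) and Tnfrsf11a (-0.32) were lower. Between RTT_ROSA26 and RTT, which show how far resistant tumours with intact genes differ, again none of the 10 passed 2-fold (2.32% of all genes did). The largest ratios there were those of the fusion genes, 0.62 for Ocstamp and 0.58 for Dcstamp, and Nfatc1 was at 0.33.

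In the other macrophages Acp5 was lower in the RTT_PTGS12KO tumour than in both tumours with intact genes. In TAM_C1q it was at 274 CPM in RTT, 199 in RTT_ROSA26 and 92.5 in RTT_PTGS12KO. In TAM_Spp1 it was at 238, 169 and 60.3 CPM, and in TAM_cycling at 182, 126 and 42.1 CPM in the same order. The 3 types thus gave the same order of tumours, although they come from the same 3 tumours and are not independent. The log2 ratio of RTT_PTGS12KO to RTT_ROSA26 was -1.09 (-1.16 to -1.03) in TAM_C1q, -1.47 (-1.58 to -1.37) in TAM_Spp1 and -1.56 (-1.63 to -1.48) in TAM_cycling, and that of RTT_ROSA26 to RTT was -0.46, -0.49 and -0.53. Leaving out the 1% of cells with the most Acp5 gave -1.17, -1.50 and -1.63. Outside the macrophages Acp5 in cDC2 was at 34.3 CPM in RTT_PTGS12KO, 92.3 in RTT_ROSA26, 101 in RTT and 46.5 in NTT, and in Infl_Mono at 32.9, 69.6, 151 and 57.8 CPM in the same order. In cDC2 and Infl_Mono, NTT thus also lay below RTT and RTT_ROSA26, whereas it lay above RTT in TAM_H2Ab1 and was highest in Neutro. Why the tumours differed in Acp5 was not tested. RTT_PTGS12KO and RTT_ROSA26 were at 34.9 and 75.2 CPM in Monocyte_1 and at 41.0 and 157 CPM in Neutro, where RTT had 128 and NTT 209.7 CPM. In Neutro the 6 cells with the most Acp5 held 37.3% of its UMIs, and without the 1% of cells of each sample that held the most the values were 28.8 and 117 CPM. NK cells, which shared the loads, had 17.2 CPM of Acp5 in RTT_PTGS12KO and 23.4 in NTT, the only samples with at least 50 of them.

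Of the 10 genes, 5 passed the 10 CPM filter in TAM_C1q, 6 in TAM_Spp1 and 5 in TAM_cycling. At least 2-fold lower in RTT_PTGS12KO than in RTT_ROSA26 were 1 of them (Acp5) in TAM_C1q, where 0.542% of all genes were, 2 (Acp5 and Nfatc1) in TAM_Spp1 (0.699%), and 2 (Acp5 and Mmp9) in TAM_cycling (1.44%). None of those that passed the filter was 2-fold higher. Between RTT_ROSA26 and RTT 6, 7 and 5 of the 10 passed the filter in the same 3 types and none of these differed by 2-fold, where 0.728%, 0.961% and 0.676% of genes did. Ocstamp in TAM_cycling missed the filter in both contrasts and did differ, with 9.29 CPM in RTT_PTGS12KO, 3.40 in RTT_ROSA26 and 11.7 in RTT. The knockout-to-control log2 ratio was 1.22 (1.00 to 1.45), opposite in sign to the lower calls, and the ratio of RTT_ROSA26 to RTT was -1.53 (-1.79 to -1.27).

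Nfatc1 in TAM_Spp1 was at 32.8 CPM in RTT_PTGS12KO, 70.1 in RTT_ROSA26 and 57.4 in RTT. The knockout-to-control log2 ratio was -1.07, and -1.12 without the 1% of cells that held the most. It fell short of 2-fold in load 1 (-0.97), with TMM factors (-0.98) and with CPM + 10 (-0.91). Mmp9 in TAM_cycling was at 9.78 CPM in RTT_PTGS12KO, 21.6 in RTT_ROSA26 and 32.6 in RTT, but its ratio of -1.07 moved to -0.08 without the 1% of cells with the most Mmp9, at 7.10 against 7.56 CPM. Ctsk had a ratio of -0.72 in TAM_C1q and -0.85 in TAM_cycling that moved to -0.13 and -0.23 in the same way. The Ctsk and Mmp9 ratios in these types thus rested on few cells. Tnfrsf11a in TAM_C1q was at 39.3 CPM in RTT, 48.4 in RTT_ROSA26 and 37.9 in RTT_PTGS12KO, so that RTT_PTGS12KO was near RTT.

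**Figure D5:**
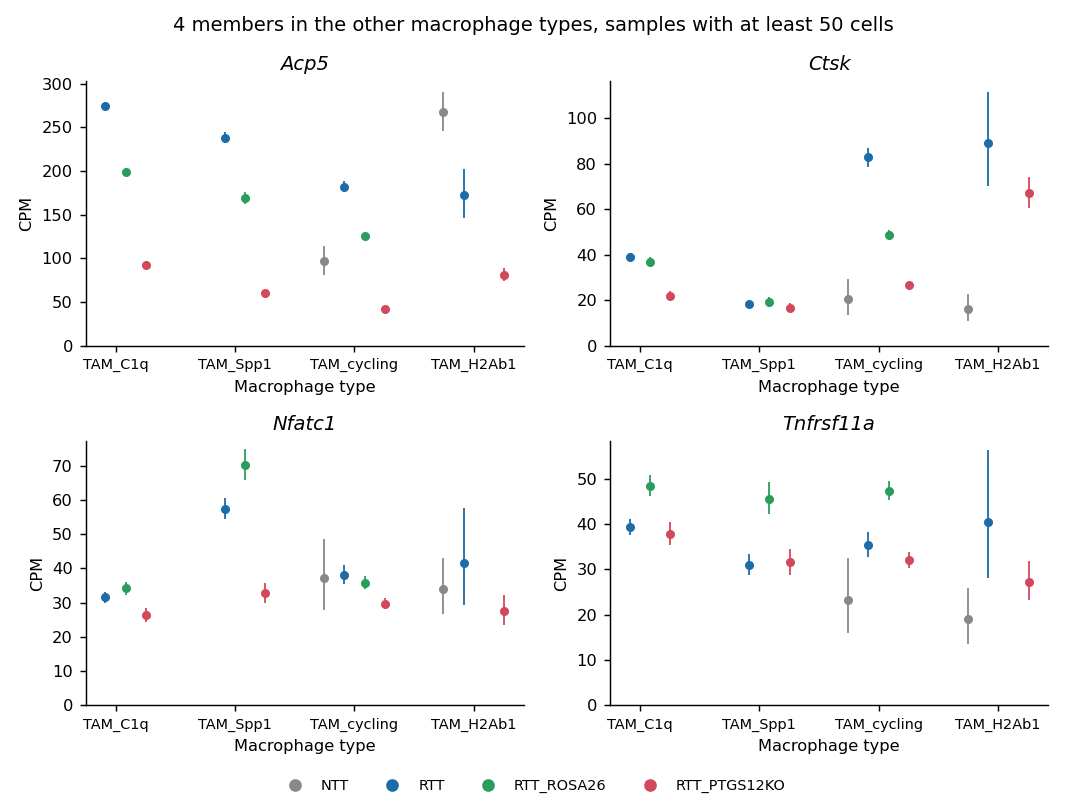
CPM of 4 of the genes in the 4 other macrophage types, 1 point per sample with at least 50 cells of the type and bars for the 95% counting interval. Acp5 was lowest in RTT_PTGS12KO in each type, at 92.5 CPM in TAM_C1q, 60.3 in TAM_Spp1, 42.1 in TAM_cycling and 81.5 in TAM_H2Ab1.

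NTT could be compared with RTT in TAM_cycling (79 and 873 cells) and TAM_H2Ab1 (192 and 63 cells). In TAM_cycling, where 9.04% of genes differed by 2-fold, 6 of the 10 passed the filter, 2 were lower in NTT and 1 was higher. Ocstamp was the higher one, with 63.2 CPM in NTT and 11.7 in RTT, with a log2 ratio of 2.34. It was at 54.4 against 31.2 CPM in TAM_H2Ab1 (0.78; 0.18 to 1.42) and at 41.3 against 22.8 CPM in Infl_Mono (0.83; 0.31 to 1.40), whereas in Monocyte_1 NTT had 41.9 and RTT 79.3 CPM (-0.91; -1.08 to -0.72). Ctsk (20.4 and 82.7 CPM) and Mmp9 (9.82 and 32.6 CPM) were the lower ones, and their log2 ratios of -1.97 and -1.63 moved to -0.07 and -0.04 without the 1% of cells that held the most. In TAM_H2Ab1, where 6.22% of genes differed by 2-fold, 6 passed and 2 were lower. They were Ctsk (16.0 and 89.1 CPM), at -2.40 and at -0.70 without those cells, and Tnfrsf11a (19.0 and 40.5 CPM), at -1.06 and -1.10. Acp5 differed in direction between the types. It was higher in NTT in TAM_H2Ab1, at 267 against 172 CPM, and lower in TAM_cycling, at 96.8 against 182 CPM (log2 ratio -0.91; -1.16 to -0.66).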

How the data were processed

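CD45+ cells of 4 tumour samples were profiled with a droplet assay that tags 3′ ends, with the samples marked by multiplexing oligos. The authors deposited UMI counts per gene and cell, not normalised, and a table naming the sample and type for every cell. The study's methods state that Cell Ranger counted against the mm10 reference, that cells needed more than 1000 genes with mitochondrial UMIs below 15% and ribosomal UMIs below 40%, and that types were named in Seurat 4.3.0 after Harmony integration at a resolution of 0.5. Oligo-based calling removed doublets between samples. No further doublet removal was made here. The deposited names were used as they are, and all columns of per-sample values belonged to this series.

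UMIs were summed per type and sample and divided by their total (CPM) in Python 3.11.15 (pandas 2.3.3, scipy 1.17.1, numpy 2.4.6). Ratios were taken as log2 of CPM + 1 for genes with a mean of at least 10 CPM, and cells were thinned without replacement. Types needed 50 cells. No test was made, with 1 sample per condition. The steps were tested on simulated data. R 4.3.3 with edgeR 4.0.16 gave the TMM factors. Figures were drawn in matplotlib 3.10.9, and gene positions are those of GENCODE vM21.

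The 10 genes and all lists were chosen with earlier results of these data known. Other genes were named by rule, as the 10 nearest to the mean of the 10 and, in each list, those of at least 20 CPM in Ctsk_Macro with the highest and lowest ratio to TAM_C1q. Genes given as the members of a count of calls were named after their values were seen. Alternatives were stricter cell filters, single loads, per-cell means, equal weights of samples, other thresholds and pseudocounts, TMM factors and other denominators. The alternatives without the 1% of cells with the most UMIs of a gene, with UMIs per cell, and with the mean UMIs of NK cells taken off were chosen after seeing the data.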

Additional observations from a re-analysis of the deposited data

Results flagged for a closer look

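Mmp9 had opposite signs in 2 macrophage types under the same contrast of RTT_PTGS12KO with RTT_ROSA26, with a log2 ratio of -1.07 in TAM_cycling and of 0.22 in Ctsk_Macro. The difference between the types was not tested. The value in TAM_cycling rested on few cells and was -0.08 without the 1% of cells with the most Mmp9.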

How the results depend on the processing

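No paired analysis was possible because each condition has 1 sample, and for the same reason no sample could be left out in turn. The number of genes highest in Ctsk_Macro was 10 under each of the 10 alternatives tried. The number limited to it was 6 to 8 under 12, with 6 where 8 times the next type was asked for and 7 in load 1 and with means of per-cell CPM. No value changed sign so as to reverse a call. For every value below that moved, the cause was not tested beyond what the setting itself changes. The Ctsk_Macro share of macrophages was 5.93% in RTT_ROSA26, 2.66% in RTT_PTGS12KO and 3.45% in NTT (4 of 116 cells) in load 1, where NTT was thus above RTT_PTGS12KO, 0% in NTT (0 of 84), 5.56% in RTT and 4.28% in RTT_PTGS12KO in load 2, and 4.27% in RTT and 7.79% in RTT_ROSA26 in load 3. Of all CD45+ cells it was 5.87% in RTT_ROSA26, 4.13% in RTT, 1.83% in RTT_PTGS12KO and 0.0605% in NTT. The median log2 ratio of the 10 genes for RTT_ROSA26 against RTT in Ctsk_Macro was 0.07 over all loads, -0.11 in load 1 and 0.15 in load 3. The count at least 2-fold lower in RTT_PTGS12KO than in RTT_ROSA26 was 1 in TAM_cycling without the 5% of cells with the most UMIs, in load 3, with means of per-cell CPM, with TMM factors and with CPM + 10, and 3 in load 1 and with the UMIs of NK cells taken off. In TAM_C1q it was 2 in load 1, 3 in load 3 and 2 with the UMIs of NK cells taken off, and in TAM_Spp1 it was 1 in load 1, with TMM factors, with CPM + 10 and with the UMIs of NK cells taken off, the gene lost in each case being Nfatc1. That last setting is void for Nfatc1, which NK cells use themselves and hold at 0.696 UMIs per cell against 0.581 in TAM_Spp1. Acp5 kept a log2 ratio of -1.03 or below in TAM_C1q, -1.28 or below in TAM_Spp1 and -1.38 or below in TAM_cycling under all 12 alternatives. The share of cells with at least 4 of the 10 genes was 88.0% in Ctsk_Macro and 0.209% in the other macrophages at 3000 UMIs, 94.8% and 2.15% at 8000 UMIs, and 97.6% and 11% without thinning. At least 3 genes gave 95.8% and 5.29%, and at least 5 gave 83.3% and 0.139%. In the other macrophages it was 0.658% in load 1 and 0.985% in load 3. A cell type minimum of 20 cells added NTT against RTT in TAM_Spp1, with 20 NTT cells. There 7 of the 10 genes passed the filter, 1 was 2-fold lower and 1 higher. The share over all genes was not counted for this contrast, so nothing is read from these counts. Depth limits what can be said of Oscar and Slc9b2 outside Ctsk_Macro, where they had few UMIs.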
